A study of Mus musculus with 8 samples.

Results

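The genes encoded in mitochondrial DNA were described in mouse hippocampus, as the 37 entries of the deposited count table whose gene name starts with mt-, out of 46078 entries. They comprised 13 protein genes, 2 ribosomal RNA (rRNA) genes and 22 transfer RNA (tRNA) genes, and all 37 matched a gene of chromosome M in GENCODE mouse release M21 (genome build GRCm38). Of the 8 RNA libraries, 4 came from wild-type hippocampus (WT) and 4 from hippocampus hemizygous for the transgene Tg(Camk2a-cre)2Gsc (Cre), which carries the Cre recombinase under control of Camk2a and is active in excitatory neurons of the forebrain. All mice were 9 weeks old and of the C57BL/6J strain, and no floxed allele was named for either group. The libraries held 21339996 to 27826871 counts. The labels give a number per library but do not tie it to an animal, so p-values measure the spread between these libraries, which may be technical.

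The mitochondrial genome is a small circle that encodes core subunits of the respiratory chain, together with the rRNAs and tRNAs needed to translate them inside the organelle. Both strands are transcribed as long precursors by the RNA polymerase Polrmt with the factors Tfam and Tfb2m, and the tRNAs that lie between the other genes are cut out to release them. Most mitochondrial mRNAs then receive a short poly(A) tail, and the mt-Nd6 mRNA of the opposite strand generally lacks one. In hippocampus the respiratory chain supplies much of the ATP that neurons use for ion pumping and synaptic release. The libraries here were made from poly(A)-selected RNA, which favours RNA with a tail.

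Stretches of the mitochondrial genome also exist as copies in nuclear chromosomes, and their sequences are given first because the levels are set beside them. Among the other GENCODE transcripts, 7 pseudogenes side by side on the minus strand of chromosome 1 (24611535 to 24616197) matched 7 of the protein genes. The matched part of the mitochondrial genome ran from 6394 to 11042, a span of 4649 bases. Every position of Gm28661, Gm10925, Gm28437, Gm10222 and Gm28439 was identical to mt-Co2, mt-Atp6, mt-Co3, mt-Nd4l and mt-Nd4, over 681, 678, 783, 294 and 876 bases. Gm28438 shared an unbroken run of 342 bases with mt-Nd3, and Gm29216 shared 479 bases with the end of mt-Co1. The start of mt-Co2 (chrM:7013-7132, plus strand) is shown with the same stretch of Gm28661 (chr1:24615446-24615565, minus strand) and of a further copy on chromosome 2, Gm13341 (chr2:22587843-22587962, minus strand). Capitals mark bases that differ from mt-Co2, counted from 1 at its first base: none in Gm28661, and C25T and G57A in Gm13341.
mt-Co2: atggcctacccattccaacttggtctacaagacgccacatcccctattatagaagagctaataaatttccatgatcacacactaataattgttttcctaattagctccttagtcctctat
Gm28661: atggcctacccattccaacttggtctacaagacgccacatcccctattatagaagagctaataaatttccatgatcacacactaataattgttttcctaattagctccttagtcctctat
Gm13341: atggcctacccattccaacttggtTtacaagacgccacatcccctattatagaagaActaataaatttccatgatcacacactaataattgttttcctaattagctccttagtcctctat

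The ends of the span cut through 2 genes, shown here because only a part of each is shared with the nuclear copy. Capitals mark the run identical to the nuclear copy, in mt-Co1 (chrM:6354-6433, with Gm29216) and in mt-Nd4 (chrM:11003-11082, with Gm28439), both on the plus strand.
mt-Co1: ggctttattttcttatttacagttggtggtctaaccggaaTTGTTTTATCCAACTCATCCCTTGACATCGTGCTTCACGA
mt-Nd4: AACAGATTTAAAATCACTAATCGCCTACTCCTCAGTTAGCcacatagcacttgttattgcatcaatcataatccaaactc
The identical run takes up 31.0% of mt-Co1 and 63.6% of mt-Nd4. In mt-Co2, mt-Atp6, mt-Co3, mt-Nd3 and mt-Nd4l, 97.0% to 99.8% of all windows as long as a read (150 bases) occurred unchanged in a nuclear transcript. The share was 0% in mt-Nd1, mt-Nd2, mt-Nd5, mt-Nd6, mt-Cytb and both rRNA genes. Shorter windows of 50 bases were shared in mt-Nd2 (8.19%), mt-Nd5 (7.61%) and mt-Rnr2 (1.04%), and windows of 100 bases in mt-Nd2 (3.19%). In mt-Atp8, which lies inside the span, the share of windows of 150 bases was also 0%. Only annotated transcripts were searched, so this does not show that the sequence of mt-Atp8 is unique.

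Levels differed sharply along the genome. On a per-length scale, CPM (counts scaled to the library total, here with TMM factors) per kb of gene, averaged over the 8 libraries, the 4 plus-strand protein genes outside the span stood at 2073 (mt-Nd5), 2417 (mt-Nd2), 3439 (mt-Nd1) and 3768 (mt-Cytb). The 6 protein genes inside the span stood at 1.34 (mt-Atp8), 7.99 (mt-Nd4l), 9.44 (mt-Co2), 12.7 (mt-Atp6), 15.7 (mt-Co3) and 39.0 (mt-Nd3). The lowest of the first set was 53.2 times the highest of the second, and no library of one set overlapped the other set. Per kb of whole gene, mt-Co1 stood at 7245 CPM and mt-Nd4 at 1524 CPM. Per kb of the stretch outside the identical run (1066 and 502 bases) these values became 10501 and 4183 CPM, if all their counts came from there. How the authors counted reads that align equally well to several places is not given in the sources used here, and its part in these levels was not tested. Levels of the genes inside the span are therefore uncertain as measures of mitochondrial RNA.

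**Figure D1:**
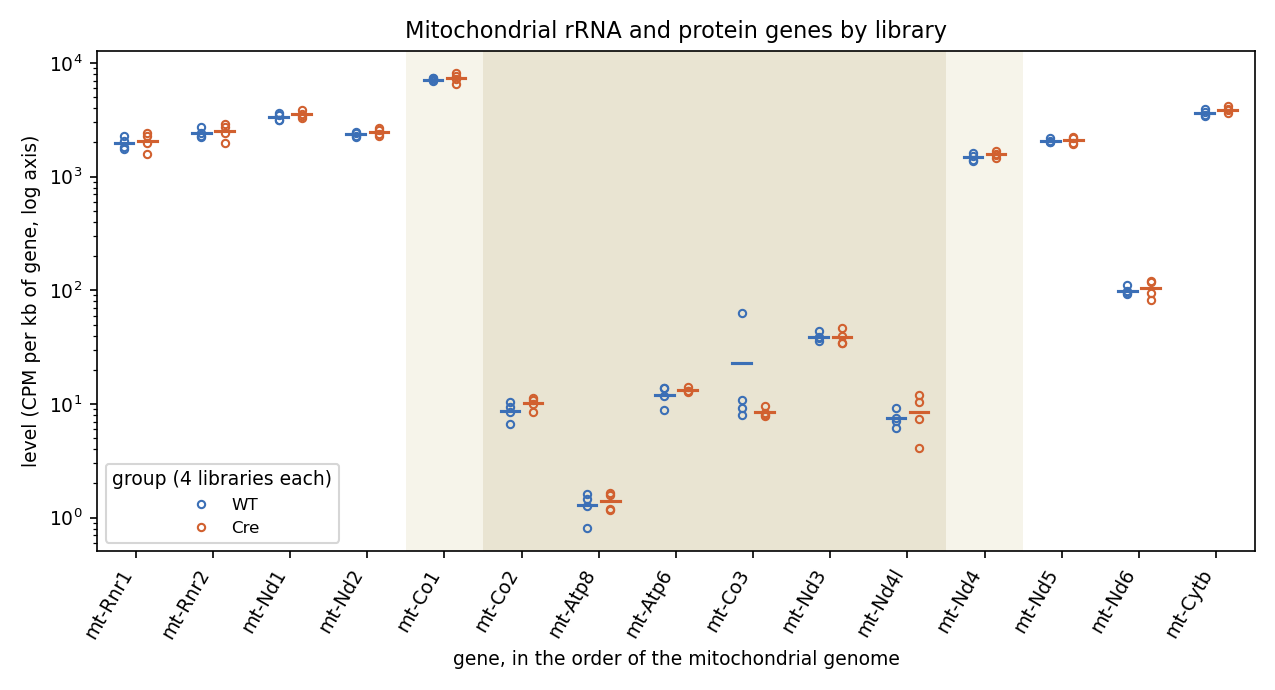
Level of each mitochondrial rRNA and protein gene in CPM per kb of gene (log axis), in the order of the genome, with 1 circle per library (WT blue, Cre orange) and a bar at the mean of 4. Dark shading marks genes inside the stretch matched by copies on chromosome 1 and light shading the 2 genes that cross its ends; no library exceeds 63.6 CPM per kb in the 6 genes under dark shading, and WT replicate 3 stands apart in mt-Co3.

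Of the 37 genes, 22 had enough counts for the test between groups (filter of edgeR with a minimum count of 10), namely both rRNA genes, 12 protein genes and 8 tRNA genes. The other 15 were mt-Atp8 and 14 tRNA genes. None of the 22 passed an adjusted p of 0.05 by edgeR's quasi-likelihood test (Benjamini-Hochberg adjustment over all 15859 genes tested), where 0.0315% of all genes did (0.0252% higher and 0.00631% lower in Cre). DESeq2 and limma voom also gave 0. At an unadjusted p under 0.05 there was 1, mt-Co3, lower in Cre, against 3.5% of all genes (2.05% higher and 1.45% lower in Cre). Groups overlapped in all 22, while 2.31% of all genes had groups that did not overlap. Fold changes lay above 0 in 19 and below 0 in 3 (50.2% of all genes lay above 0), and their median was 0.05 on the log2 scale, against 0.0004 over all genes. Cre replicate 3 was the highest library for 14 of the 22, so the members cannot be taken as 22 separate observations. In bulk tissue fewer cells of a type and less RNA per cell cannot be told apart.

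**Figure D2:**
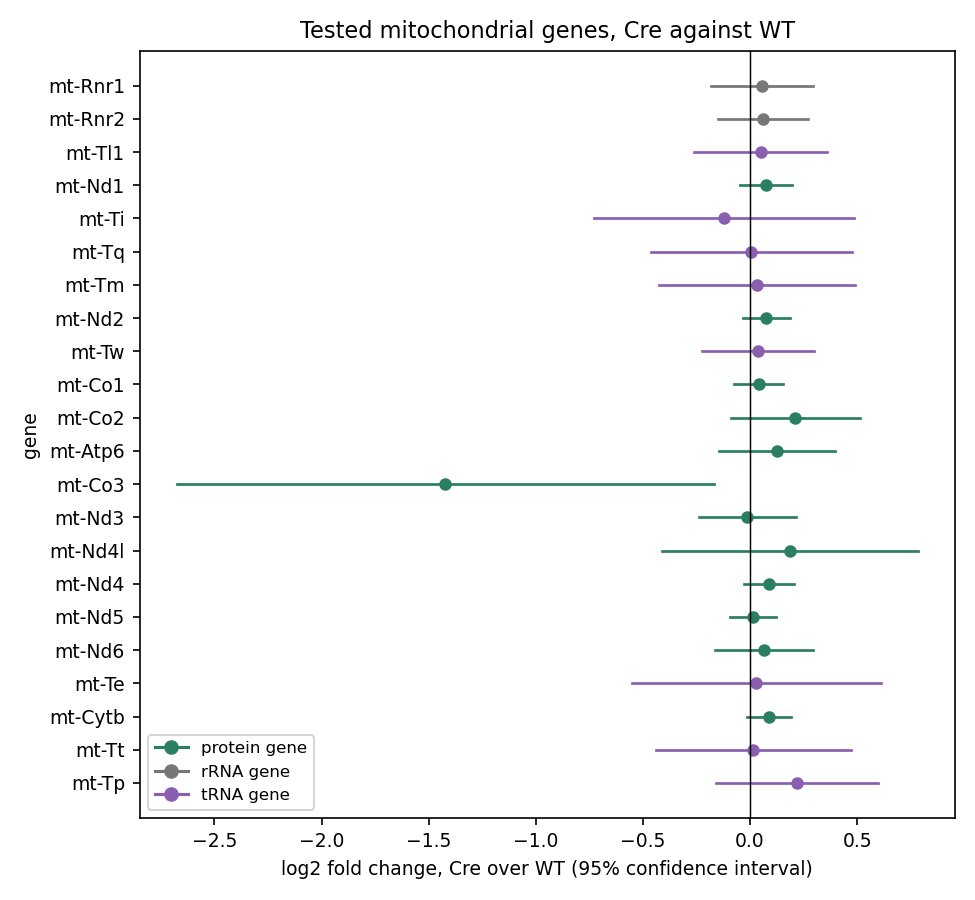
Log2 fold change (Cre over WT, points) with its 95% confidence interval (lines) for the 22 tested mitochondrial genes in genome order, from edgeR's quasi-likelihood fit of 4 against 4 libraries. All intervals include 0 except that of mt-Co3 (-2.68 to -0.17), whose WT mean rests on 1 library.

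The rRNA genes encode the 12S (mt-Rnr1) and 16S (mt-Rnr2) RNAs of the mitochondrial ribosome. mt-Rnr1 (chromosome M, 70 to 1024) had 1687, 1754, 1967 and 2159 CPM in WT replicates 1 to 4 and 1508, 1871, 2306 and 2179 CPM in Cre replicates 1 to 4. mt-Rnr2 (1094 to 2675) had 3552, 3579, 3812 and 4297 CPM in WT and 3123, 3851, 4632 and 4288 CPM in Cre. In both genes the lowest and the highest value belonged to Cre libraries, replicate 1 and replicate 3, with all WT values between them. The log2 fold change was 0.06 for mt-Rnr1 (SE 0.11) and 0.06 for mt-Rnr2 (SE 0.10), neither past the threshold. Per length, mt-Rnr2 was 1.17 to 1.27 times mt-Rnr1 in all 8 libraries, with means of 1.22 ± 0.04 in WT and 1.22 ± 0.03 in Cre (SD, n = 4 each). The rRNA share of mitochondrial counts was 15.7%, 17.2%, 18.3% and 19.05% in WT replicates 1 to 4 and 15.4%, 16.6%, 18.6% and 19.3% in Cre replicates 1 to 4. The groups thus covered the same range, with means of 17.6 ± 1.46% in WT and 17.5 ± 1.78% in Cre (SD, n = 4 each).

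Complex I, the NADH dehydrogenase that feeds electrons into the chain, takes 7 subunits from mitochondrial DNA. mt-Nd1 (chromosome M, 2751 to 3707) had 3485, 2994, 3039 and 3303 CPM in the WT libraries and 3116, 3415, 3702 and 3274 CPM in the Cre libraries. mt-Nd2 (3914 to 4951) had 2562, 2377, 2315 and 2519 CPM in WT and 2343, 2675, 2800 and 2485 CPM in Cre. For both, Cre replicate 3 was highest and the remaining libraries of the groups were interleaved (log2 fold change 0.08, SE 0.06 for mt-Nd1 and 0.05 for mt-Nd2). mt-Nd4 (10167 to 11544) averaged 2035 ± 151 CPM over the WT and 2164 ± 134 CPM over the Cre libraries (SD, n = 4 each), a log2 fold change of 0.09 (SE 0.05) with overlapping groups. mt-Nd5 (11742 to 13565), the longest of the protein genes, had 3979, 3650, 3639 and 3781 CPM in WT and 3589, 4012, 4098 and 3505 CPM in Cre. Its fold change was the closest to 0 among the abundant protein genes, at 0.01 on the log2 scale (SE 0.05, 95% confidence interval -0.09 to 0.12).

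mt-Nd6 (13552 to 14070) is the only protein gene on the minus strand, and its 3' end overlaps that of mt-Nd5 by 14 bases. It had 51.5, 48.4, 48.9 and 57.4 CPM in WT and 42.6, 61.1, 63.1 and 48.8 CPM in Cre. Cre libraries held the lowest and the highest values here too (log2 fold change 0.07, SE 0.11). Per length, mt-Nd5 was 18.7 to 22.0 times mt-Nd6 in WT and 18.5 to 24.0 times in Cre. The strand setting of the counting is not given in the sources used here, so reads that mt-Nd6 shares with transcripts of the opposite strand cannot be told apart from its own.

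The small complex I genes mt-Nd3 and mt-Nd4l lie inside the span with nuclear copies. mt-Nd3 (9459 to 9806) had 15.3, 13.5, 12.5 and 13.3 CPM in WT and 11.9, 13.7, 16.4 and 12.03 CPM in Cre, with a log2 fold change of -0.01 (SE 0.10). Its copy Gm28438 was far lower, at 5 to 17 counts per library against 284 to 458 for mt-Nd3. mt-Nd4l (9877 to 10173) had 44 to 74 counts per WT library and 29 to 88 per Cre library (log2 fold change 0.19, SE 0.28). Its last 7 bases are also the first 7 of mt-Nd4, and both are read from a joint mRNA. The shared bases are in capitals in chrM:10154-10186 (plus strand).
mt-Nd4l and mt-Nd4 junction: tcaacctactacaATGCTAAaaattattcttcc

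Complex III passes electrons from ubiquinol to cytochrome c, and cytochrome b is its only subunit from mitochondrial DNA. mt-Cytb (chromosome M, 14145 to 15288) had 4517, 3938, 4002 and 4248 CPM in WT and 4150, 4509, 4751 and 4369 CPM in Cre. WT replicate 1 lay above 3 of the 4 Cre libraries, and WT replicates 2 and 3 lay below all of them. Its log2 fold change of 0.09 (SE 0.05, 95% confidence interval -0.01 to 0.19) had the smallest unadjusted p of the members outside the span (0.0803; adjusted p = 0.999 by edgeR; exact permutation p = 0.200, where 4 against 4 libraries can reach 0.0286, 2-sided). Relative to mt-Nd5 per length, mt-Cytb stood at 1.72 to 1.81 in WT and 1.79 to 1.99 in Cre, ranges that overlapped. For the 6 abundant plus-strand protein genes (mt-Nd1, mt-Nd2, mt-Co1, mt-Nd4, mt-Nd5 and mt-Cytb) the 95% confidence intervals ran from a change of -6.16% to one of 15.2% relative to WT, so larger changes lay outside them.

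Complex IV, cytochrome c oxidase, has its 3 core subunits from mitochondrial DNA. mt-Co1 (chromosome M, 5328 to 6872) was the most counted member, with 11349, 10619, 10827 and 11358 CPM in WT and 10053, 11743, 12470 and 11133 CPM in Cre. The 4 WT libraries lay inside the range of the 4 Cre libraries (log2 fold change 0.04, SE 0.05). It took 33.5% to 34.3% of all mitochondrial counts in WT and 33.3% to 34.1% in Cre.

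mt-Co2 (7013 to 7696), whose protein accepts electrons from cytochrome c, had 7.11, 6.49, 5.77 and 4.57 CPM in WT and 5.86, 6.81, 7.65 and 7.42 CPM in Cre. Its copy Gm28661 had more counts than mt-Co2 in every library, 137 to 185 per 100 counts of mt-Co2 in WT and 156 to 191 in Cre. The groups overlapped in mt-Co2 (log2 fold change 0.21, SE 0.14) and in the copy (0.30, SE 0.13; adjusted p = 0.999 by edgeR).

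mt-Co3 (8607 to 9390) encodes the remaining core subunit of the oxidase. Its counts were 230, 193, 1201 and 153 in WT replicates 1 to 4 and 150, 131, 209 and 160 in Cre replicates 1 to 4, or 8.52, 7.15, 49.9 and 6.30 CPM in WT and 6.28, 6.19, 7.47 and 6.52 CPM in Cre. WT replicate 3 was 5.86 times the next highest library, and the other 7 overlapped. The fitted log2 fold change of -1.42 (SE 0.58; unadjusted p = 0.0291, adjusted p = 0.999 by edgeR; exact permutation p = 0.200) became -0.14 (SE 0.13) without that library. The copy Gm28437 did not share the excess, with 209 counts in WT replicate 3, where the WT libraries 1, 2 and 4 had 254 to 359 and the Cre libraries 286 to 436. Per 100 counts of mt-Co3 the copy thus had 17.4 in WT replicate 3, while WT replicates 1, 2 and 4 had 148, 186 and 166 and the Cre libraries 195 to 218. This ratio did not overlap between the groups, with or without WT replicate 3. It was taken up after the counts were seen, and the same ratio overlapped between the groups for every other copy on chromosome 1. What set that library apart in mt-Co3 was not tested. The neighbours mt-Atp6 and mt-Nd3 were not raised in WT replicate 3 either, at 6.06 and 12.5 CPM, the lowest WT value of each.

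**Figure D3:**
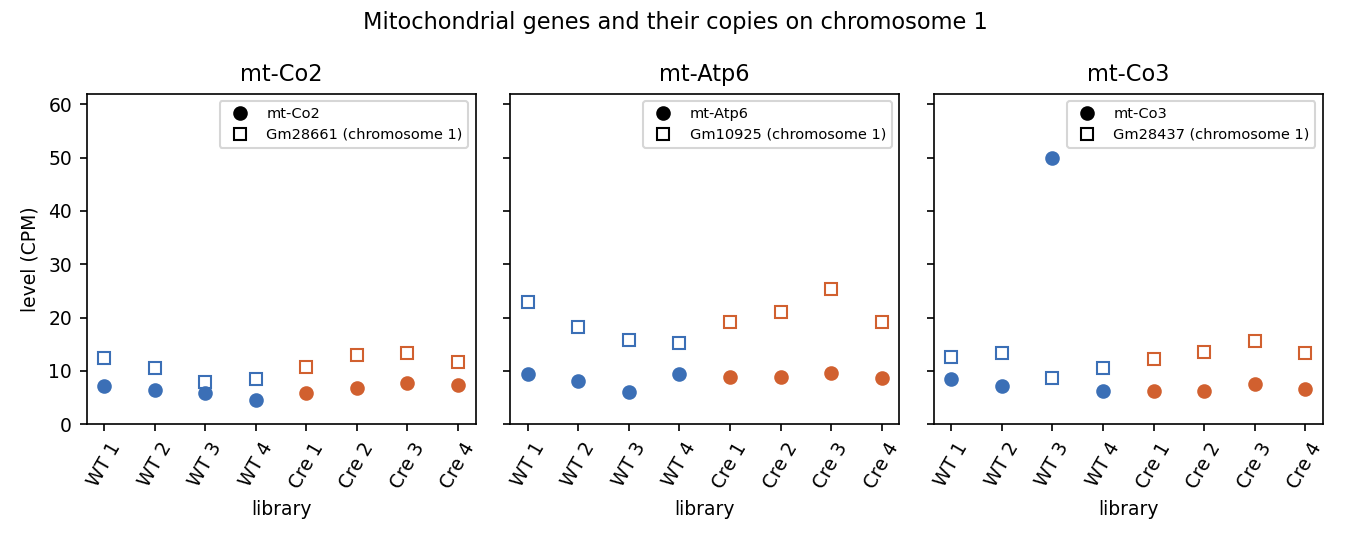
Level in CPM of mt-Co2, mt-Atp6 and mt-Co3 (filled circles) and of their copies on chromosome 1 (open squares) in each library, WT in blue and Cre in orange. In mt-Co2 and mt-Atp6 the copy lies above the mitochondrial gene in all 8 libraries, and in mt-Co3 the order turns in WT replicate 3 alone (49.9 CPM against 8.68 CPM).

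Complex V, the ATP synthase, has 2 membrane subunits from mitochondrial DNA, mt-Atp8 (7766 to 7969) and mt-Atp6 (7927 to 8607). They share 43 bases (chrM:7927-7969), in which mt-Atp6 begins, with its start codon in capitals, before mt-Atp8 has ended.
mt-Atp8 and mt-Atp6 overlap: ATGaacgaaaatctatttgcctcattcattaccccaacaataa
mt-Atp6, the proton channel subunit, had 9.41, 8.04, 6.06 and 9.46 CPM in WT and 8.83, 8.89, 9.58 and 8.72 CPM in Cre. WT replicates 1 and 4 lay inside the range of the Cre libraries and WT replicates 2 and 3 below it (log2 fold change 0.13, SE 0.12). Its copy Gm10925 had 370 to 620 counts per WT library and 446 to 708 per Cre library, 161 to 264 per 100 counts of mt-Atp6. mt-Atp8 had 4 to 8 counts per WT library and 5 to 9 per Cre library, too few for the test.

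The 7 copies on chromosome 1 all had fold changes above 0, from 0.18 to 0.61 on the log2 scale. They lie side by side and nearly match the members in sequence, so they cannot be taken as 7 separate observations. None passed the threshold by edgeR or had groups that did not overlap, and 3 of 7 had an unadjusted p under 0.05 (Gm29216, Gm28661 and Gm28437), all higher in Cre, as had 2.05% of all genes. WT replicate 3 was the lowest library for 5 of them and WT replicate 4 for the other 2, and Cre replicate 3 was the highest for 5. Gm29216, the copy of the end of mt-Co1, had the smallest p of the copies (0.0132 unadjusted, adjusted p = 0.999 by edgeR), with 175, 136, 83 and 112 counts in WT and 144, 161, 205 and 155 counts in Cre (log2 fold change 0.47, SE 0.16; exact permutation p = 0.0857). Outside these 7, the pseudogene Gm13340, which shares sequence with mt-Co1 (a window of 50 bases or more), had a log2 fold change of -0.05 (SE 0.18). Each member was also summed with its copy on chromosome 1, an alternative chosen after the counts were seen. There 0 members passed by edgeR, and mt-Co3 had a log2 fold change of -0.52 (SE 0.31).

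The tRNA genes are 59 to 75 bases long, shorter than a read of 150 bases, and mature tRNAs carry no poly(A) tail. Their 22 genes together held 0.0739% to 0.0786% of mitochondrial counts in WT and 0.0657% to 0.0801% in Cre. The filter passed 8 of the 17 tRNA genes outside the span with nuclear copies and 0 of the 5 inside it. By strand, 5 of 14 plus-strand and 3 of 8 minus-strand tRNA genes passed. The tested fold changes ran from -0.12 to 0.22 on the log2 scale, with standard errors of 0.12 to 0.28. Among the 14 others, 11 had 2 to 53 counts over all libraries. The genes mt-Tf, mt-Td and mt-Tk had 0 counts, which allows up to 0.107 to 0.142 CPM per library (the level of 3 counts, counting error only).

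The most counted tRNA gene was mt-Tw, for tryptophan (chrM:4950-5016), at 7.97 to 10.3 CPM in WT and 6.90 to 9.65 CPM in Cre. It follows mt-Nd2 and shares its first 2 bases with the end of that gene, in capitals here.
mt-Tw: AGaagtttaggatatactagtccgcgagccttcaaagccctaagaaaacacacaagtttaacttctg
Next came mt-Tl1, the leucine tRNA between mt-Rnr2 and mt-Nd1, with 4.70, 4.04, 4.69 and 4.11 CPM in WT and 3.47, 4.44, 4.79 and 5.42 CPM in Cre. mt-Tp, the proline tRNA on the minus strand, had 4.74, 3.89, 3.82 and 3.004 CPM in WT and 3.22, 4.78, 5.26 and 4.73 CPM in Cre. Groups overlapped in all 3, with log2 fold changes of 0.04 (SE 0.12), 0.05 (SE 0.14) and 0.22 (SE 0.17). The other tested tRNA genes, mt-Ti, mt-Tq, mt-Tm, mt-Te and mt-Tt, had group means of 0.63 to 2.06 CPM.

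The share of mitochondrial counts overlapped between the groups and spread more widely among the Cre than among the WT libraries. Mitochondrial genes took 3.35%, 3.12%, 3.14% and 3.35% of all counts in WT replicates 1 to 4 and 3.03%, 3.41%, 3.74% and 3.34% in Cre replicates 1 to 4. The means were 3.24 ± 0.13% and 3.38 ± 0.29% (SD, n = 4 each), a difference of 0.14 percentage points that fell to 0.02 without Cre replicate 3. Among the 7 protein genes with a mean of at least 1000 counts, Cre replicate 3 was the highest library in all 7 and Cre replicate 2 lay above the gene's mean in all 7. WT replicates 2 and 3 and Cre replicate 1 lay below the mean in all 7. Within the mitochondrial counts the makeup by complex overlapped between the groups. Complex I genes took 35.4 ± 0.98% in the WT and 35.6 ± 1.22% in the Cre libraries, the complex III gene 12.9 ± 0.44% and 13.2 ± 0.46%, and complex IV genes 34.1 ± 0.40% and 33.6 ± 0.37% (SD, n = 4 each). mt-Co1 alone averaged 34.0% in WT and 33.6% in Cre, so the complex IV share was nearly all mt-Co1. Complex V genes averaged 0.026% and 0.028%. These are shares of counts. The protein genes inside the span with nuclear copies add little to them, and their levels are uncertain. The rRNA genes did not follow the protein genes in every library. In WT replicate 1 the protein genes had a median deviation of 0.07 on the log2 scale and the rRNA genes -0.18 and -0.12. In Cre replicate 4 the protein genes stood at -0.01 and the rRNA genes at 0.19 and 0.15.

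**Figure D4:**
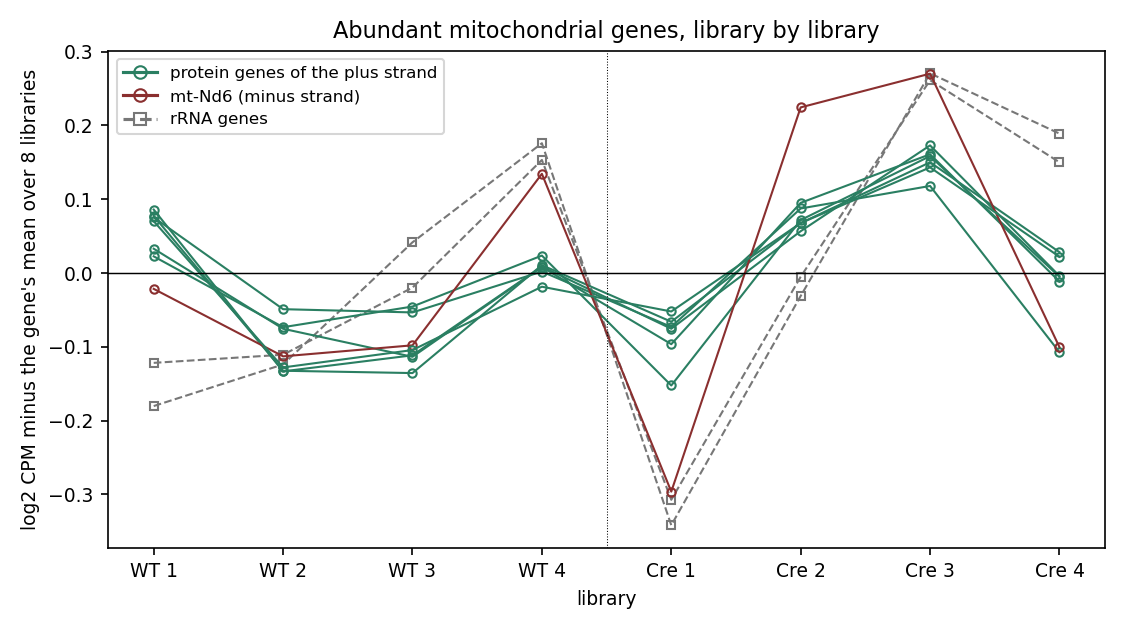
Log2 CPM of the 9 mitochondrial genes with a mean of at least 1000 counts, minus the gene's mean over the 8 libraries; lines only join the values of 1 gene, since libraries have no order. Cre replicate 1 is the lowest for mt-Co1 (-0.15), mt-Nd6 and both rRNA genes (-0.30 to -0.34) and Cre replicate 3 is the highest for all 9 genes (0.12 to 0.27).

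Syt2, named to describe the groups, stood at 32.8 to 41.5 CPM in WT and 164 to 188 CPM in Cre. It passed the threshold in these same libraries (adjusted p = 2.48e-09 by edgeR), so it is no independent check of the labels. Hippocampal neuron markers were present in every library (6 markers of excitatory neurons summed to 7781 to 8298 CPM in WT and 7776 to 8353 CPM in Cre). WT replicate 1 stood apart in choroid plexus markers, with a sum of 995 CPM over 6 genes, all 6 with a fold change below 0; the lowest WT sum was 28.4 CPM, and the Cre sums were 27.4 to 39.7 CPM. Without that library 0 mitochondrial genes passed by edgeR and the difference in share was 0.18 percentage points. Cre replicate 1, the library with the lowest mitochondrial share, had the highest sums of markers of microglia (329 CPM, 6 of 6 markers above 0 in fold change, WT 240 to 252 CPM, Cre from 255 CPM), astrocytes (5928 CPM, 7 of 7, WT 4909 to 5281 CPM, Cre from 5294 CPM) and oligodendrocytes (4828 CPM, 6 of 6, WT 3774 to 4181 CPM, Cre from 3773 CPM). Its sum of endothelial markers was the highest too (143 CPM, 3 of 5 above 0, WT 110 to 137 CPM, Cre from 122 CPM). The sums of microglia and astrocyte markers did not overlap between the groups, but the gaps were narrow. The highest WT and lowest Cre sums were 252 and 255 CPM for microglia and 5281 and 5294 CPM for astrocytes. Gene by gene, groups did not overlap in 2 of 6 microglia markers (Csf1r and C1qb) and 2 of 7 astrocyte markers (Slc1a2 and Slc1a3), against 2.31% of all genes. In the other markers of both lists the groups overlapped. By edgeR, 3 of 6 microglia and 3 of 7 astrocyte markers had an unadjusted p under 0.05, higher in Cre, as had 2.05% of all genes. No marker of these lists was at 0 in all libraries, and their part in the mitochondrial levels was not tested.

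The nuclear genes that make, process and maintain mitochondrial RNA and DNA were measured in 4 lists of 65 genes, all tested. None passed the threshold by edgeR or by DESeq2, with 26 above 0 and 39 below and a median log2 fold change of -0.02. At an unadjusted p under 0.05 there was 1 of 65 (1.54%, against 3.5% of all genes), Mterf3, a member of the mitochondrial transcription termination factor family. Groups did not overlap in 2 of 65 (3.08%, against 2.31% of all genes), Mterf3 and Mterf1b, both higher in Cre. Mterf3 had 14.4, 13.6, 14.2 and 12.3 CPM in WT and 14.5, 15.7, 15.2 and 15.5 CPM in Cre. Its fitted difference was 0.16 on the log2 scale (SE 0.07; adjusted p = 0.999 by edgeR; exact permutation p = 0.0286, the smallest possible). Mterf1b, a close paralog of Mterf1a with which it may share reads, was low, at 1.39 ± 0.12 CPM over WT and 1.77 ± 0.20 CPM over Cre libraries (log2 fold change 0.36, SE 0.18; adjusted p = 0.999 by edgeR), while Mterf1a stood at -0.14 (SE 0.15). Of the 11 transcription genes 5 lay above 0 and 6 below. Polrmt, the polymerase, averaged 36.7 ± 1.20 CPM over WT and 34.1 ± 1.74 CPM over Cre libraries (SD, n = 4 each). Its groups overlapped, at a log2 fold change of -0.11 (SE 0.05). Tfam, which packs mitochondrial DNA and starts its transcription, averaged 33.5 ± 2.33 CPM over WT and 33.3 ± 2.91 CPM over Cre libraries, a log2 fold change of -0.01 (SE 0.07). Tfb2m, a further initiation factor, averaged 18.2 ± 0.87 and 17.8 ± 0.68 CPM, a log2 fold change of -0.03 (SE 0.06).

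Among 29 genes of RNA processing and turnover 8 lay above 0 and 21 below, with a median of -0.02. Lrpprc and Slirp form the complex that stabilises mitochondrial mRNAs and helps their polyadenylation. Lrpprc averaged 82.9 ± 3.46 CPM over WT and 80.0 ± 2.98 CPM over Cre libraries, a log2 fold change of -0.05 (SE 0.04). Slirp averaged 10.3 ± 1.03 and 11.4 ± 0.60 CPM, a log2 fold change of 0.14 (SE 0.09). The groups overlapped in both. Tbrg4, a FASTK family regulator of mitochondrial mRNA, stood at -0.09 (SE 0.05). In the list for DNA replication and upkeep (15 genes, 6 above 0 and 9 below), Peo1, the older symbol of the helicase gene Twnk, stood at -0.11 (SE 0.06) and Rrm2b, a ribonucleotide reductase subunit gene, at -0.08 (SE 0.04). Of 10 regulators of mitochondrial biogenesis 7 lay above 0 and 3 below. Ppargc1a, the coactivator that drives biogenesis in many tissues, averaged 51.8 ± 2.56 CPM over WT and 49.6 ± 3.52 CPM over Cre libraries, a log2 fold change of -0.06 (SE 0.06), while Gabpb2 stood at 0.14 (SE 0.08) and Esrra at 0.08 (SE 0.05).

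The nuclear subunits that join the mitochondrial ones in complexes I, III, IV and V were taken from a list of 23 genes, of which 0 passed by edgeR, 18 lay below 0 and 5 above (median log2 fold change -0.04). An unadjusted p under 0.05 was found for 2 (8.70%, against 3.5% of all genes), the complex III genes Uqcrc1 and Uqcrc2, whose proteins join cytochrome b. Uqcrc1 averaged 223 ± 5.35 CPM over WT and 210.0 ± 7.84 CPM over Cre libraries (log2 fold change -0.09, SE 0.04), with overlapping groups. Uqcrc2 averaged 172 ± 6.36 and 161 ± 3.18 CPM, a log2 fold change of -0.09 (SE 0.04). Groups did not overlap in 3 of the 23 (13.04%, against 2.31% of all genes), all lower in Cre, namely Uqcrc2, the complex I gene Ndufv1 (log2 fold change -0.08, SE 0.04) and the complex V gene Atp5a1 (-0.05, SE 0.03). None of the 3 passed by edgeR (adjusted p = 0.999 each).

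The authors' deposited table listed 24 of the 37 mitochondrial genes, 21 of them with a log2 fold change above 0, and its smallest p-value among them was 0.0564, for mt-Co3, where it gives a log2 fold change of -1.44. It was made from the same libraries and is not independent.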

How the data were processed

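Hippocampal poly(A) RNA of 8 libraries (4 WT, 4 Cre) was made into directional libraries and sequenced in pairs of 150 bases, per the labels' protocols. The deposited table holds raw counts per gene symbol, made by the authors with STAR 2.6.1d and featureCounts on GRCm38, per the submitters' processing notes, which also name edgeR 3.11. The sources used here do not give the annotation release, the strand setting or the treatment of reads with several alignments. The authors' second table gives a log2 fold change and a p-value per gene. The deposited columns all matched a library. Poly(A) selection favours tailed RNA.

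Here edgeR 4.0.16 (R 4.3.3) was run on the counts: filterByExpr (minimum count 10, minimum total 15; 15859 genes kept, 99.9% of counts), TMM factors (0.988 to 1.01), quasi-likelihood test of Cre against WT without covariates, 2-sided, Benjamini-Hochberg adjustment over all genes tested, threshold 0.05. Exact permutation tests used log2 CPM (prior count 2) over all 70 splits. DESeq2 1.42.0, limma 3.58.1 (voom), other scalings, no filter, a replicate block and leaving out each library were alternatives. The scripts were tested on simulated data. Positions, lengths and sequences come from GENCODE M21, and windows of 50, 100 and 150 bases were matched on both strands to all its other transcripts. A genome sequence was not used here. Named are members with a mean of at least 10 counts per library, the 2 genes with the smallest p of each nuclear list, and Polrmt, Tfam, Tfb2m, Lrpprc, Slirp, Ppargc1a and Syt2. The members and lists were chosen with earlier results of these data known. The nuclear copies, mt-Atp8, Mterf1a, Mterf1b, Ndufv1, Atp5a1 and the 3 tRNA genes without counts were added after their values were seen.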

Additional observations from a re-analysis of the deposited data

Results flagged for a closer look

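In 4 of 70 groups of 4 libraries that were examined, the highest or lowest library lay farther from the others than Dixon's 95% limit for 4 values, where chance gives about 1 in 20. mt-Co3 in WT was the largest in size, with WT replicate 3 at 49.9 CPM and the other WT libraries at 6.30 to 8.52 CPM. mt-Tw was high in WT replicate 4 (10.3 CPM against 7.97 to 8.26 CPM) and low in Cre replicate 1 (6.90 CPM against 9.46 to 9.65 CPM). mt-Ti, the isoleucine tRNA gene, was high in WT replicate 4 (1.11 CPM against 0.704 to 0.741 CPM), which is 27 counts against 17 to 20.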

How the results depend on the processing

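The number of mitochondrial genes past the threshold was 0 in all alternatives run, as was that of the nuclear genes of mitochondrial gene expression. Over all genes 4 to 7 passed, against 5. The numbers in the labels were not treated as pairs: deviations of same-numbered WT and Cre libraries correlated at 0.20, -0.11, 0.02 and 0.02 over genes, and with the replicate block 6 genes and 0 members passed. In the rRNA share of mitochondrial counts, however, same-numbered WT and Cre libraries differed by only 0.207 to 0.61 percentage points. The replicate block lowered the SE of mt-Rnr1 from 0.11 to 0.06 (log2 fold change 0.04) and that of mt-Rnr2 from 0.10 to 0.07 (0.05). It raised the SE of mt-Nd1 from 0.056 to 0.067, of mt-Nd2 from 0.051 to 0.063 and of mt-Co1 from 0.052 to 0.062. Of 337 alternative fold changes of the 22 tested members 308 kept their direction, 29 changed it and none passed (smallest adjusted p = 0.688, edgeR without the filter, for mt-Co3). Apart from leaving out a library, the sign changed in mt-Tq with limma voom (log2 fold change -0.0148) and with the replicate block (-0.000676), and in mt-Nd3 summed with its copy (0.00721). For mt-Co3 the value was -0.79 with limma voom, -1.02 with the replicate block and -0.52 with its copy added. The cause was not tested. For mt-Co3 and the members whose sign changed, leaving out each library gave ranges of -0.0296 to 0.164 for mt-Rnr1, -0.0208 to 0.160 for mt-Rnr2, -0.0466 to 0.157 for mt-Tl1, -0.335 to 0.0569 for mt-Ti, -0.111 to 0.127 for mt-Tq, -0.111 to 0.180 for mt-Tm, -0.00652 to 0.141 for mt-Tw, -0.00780 to 0.0944 for mt-Co1, -0.126 to 0.0470 for mt-Nd3, -0.0261 to 0.416 for mt-Nd4l, -0.0230 to 0.0531 for mt-Nd5, -0.0222 to 0.163 for mt-Nd6, -0.122 to 0.123 for mt-Te, -0.0899 to 0.121 for mt-Tt and -1.7 to -0.144 for mt-Co3. Among those that kept their sign, the value fell by over 1.5 times in mt-Atp6 (to 0.01 without WT replicate 3), mt-Nd1 (lowest 0.03), mt-Nd2 (0.03), mt-Co2 (0.10), mt-Nd4 (0.05), mt-Cytb (0.06) and mt-Tp (0.12). The difference in mitochondrial share ran from 0.02 (without Cre replicate 3) to 0.26 percentage points (without Cre replicate 1), another denominator gave 0.142 or 0.153, and leaving out the rRNA genes gave 0.116. Precision is limited for the tRNA genes, mt-Atp8, mt-Nd4l, mt-Co2 and mt-Atp6, which had no more than 270 counts per library. It is also limited for mt-Co3, which had 131 to 230 counts in the libraries other than WT replicate 3. DESeq2 gave no adjusted p for mt-Co3.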
